A study of Owenia fusiformis with 26 samples.

Results

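*six3/6* (OFUSG12368) and *foxQ2* (OFUSG09682) are 2 transcription factor genes of the annelid *Owenia fusiformis*, picked by their identifiers from 26966 genes in an RNA-seq time course of normal development. Each is a single transcript in the table, and both are among the 23934 genes that were tested. The study asked how ERK1/2 signalling and the organiser cell 4d pattern this embryo, and used the time course to place its candidate genes in development. It covers 12 stages with 2 libraries each: the oocyte, the 1-cell, 2-cell, 4-cell and 8-cell stages, 3 h post fertilisation (hpf), 4 hpf, and then the blastula at 5 hpf, the gastrula at 9 hpf, the elongating embryo at 13 hpf, the young larva at 18 hpf and the grown larva at 27 hpf. All animals were untreated and were reared in artificial sea water; the labels name no genotype or strain. Below, stages from 3 hpf on are given by their time. The labels call the samples up to 13 hpf embryos and those of 18 and 27 hpf larvae.

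*six3/6* encodes a homeodomain protein of the sine oculis family, whose vertebrate relatives pattern the forebrain and the eye. *foxQ2* encodes a forkhead protein. In many marine larvae both genes are active at the apical pole, where the apical organ forms, a ciliated sensory structure with neurons, and in several animals Wnt signalling keeps them out of more posterior tissue. The study assigns *foxQ2* to the apical ectoderm and *six3/6* to the apical ectoderm and the larval oesophagus, so *six3/6* has more than 1 site of expression in the larva.

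Values are the normalised expression of the authors, without a unit of length, so a level can be compared between stages of a gene but not between the 2 genes. From the steps between low values, 1 read was worth 0.958 to 1.62 in a library, which put the libraries at 22.3 to 37.1 M reads (median 28.0 M). A count of 0 allows up to 3 reads, which is a value of 2.87 to 4.85 depending on the library; floors and counting intervals cover counting error only. Whole embryos or larvae were sequenced, so more cells with a transcript and more transcript per cell cannot be told apart. The study describes the 2 replicates of the time course as biological. The labels do not say whether the replicates of a stage came from separate parents or cultures, and p-values therefore measure the spread between these samples only.

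Neither gene had more than a few reads before 4 hpf. In the 12 libraries up to 3 hpf, *six3/6* was at 0 in 7 and *foxQ2* was at 0 in 9. The highest *six3/6* value there was 5.81, in replicate 2 of the 4-cell stage, which is 5 reads. The highest *foxQ2* value was 4.00, in replicate 1 of 3 hpf, which is 3 reads. Summed over these libraries there were 14 reads of *six3/6* and 6 of *foxQ2*, and 13 of the 14 *six3/6* reads were in replicate 2 libraries. In both oocyte libraries both genes were at 0, so neither transcript was detected in the oocyte at this depth. At the 1-cell stage replicate 2 held 4 reads of *six3/6* and 1 of *foxQ2*, and replicate 1 held 0 of either. Whether these few reads are maternal was not tested. Such low levels were common, as 14.1% of all genes tested had stage means under 5 at every stage up to 3 hpf.

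At 4 hpf both genes had more reads than at any earlier stage. *foxQ2* had values of 72.0 and 13.4 (56 and 13 reads) at 4 hpf, against 4.00 and 0 (3 and 0 reads) at 3 hpf. *six3/6* had 23.1 and 3.12 (18 and 3 reads) at 4 hpf, against 0 and 4.10 (0 and 3 reads) at 3 hpf. The *foxQ2* libraries of the 2 stages did not overlap. For *six3/6* they did, as replicate 2 held 3 reads at each stage, and its lower value at 4 hpf reflects the scaling. The share of all genes without overlap at this step was not counted.

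Pooled over replicates, the 4 hpf libraries held 69 *foxQ2* reads against 3 at 3 hpf, a depth-adjusted ratio of 19.5 (95% counting interval 6.39 to 96.7). For *six3/6* there were 21 reads at 4 hpf against 3 at 3 hpf, a ratio of 5.92 (1.77 to 31.0). These intervals leave out the spread between replicates. On the scale of log2(value + 1), the limma fit of all 24 libraries gave changes of 3.86 ± 0.86 (SE) for *foxQ2* and 2.14 ± 0.95 for *six3/6*, with Benjamini-Hochberg adjusted p-values of 0.0613 and 1. In this fit, which has no replicate term, neither gene was called at the threshold of 0.05. *foxQ2* passed it in some other fits, among them those with the replicate number as a block, over all stages or by period (adjusted p = 0.0406 and 0.0233 in limma). In the fit without a block 0.606% of all genes tested were called higher and 0.0334% lower at 4 hpf. The 95% intervals were 2.03 to 5.69 for *foxQ2* and 0.12 to 4.17 for *six3/6*. Fitted changes from so few reads depend on the pseudocount: with 0.1 and 10 in place of 1 they were 5.61 and 1.89 for *foxQ2* and 3.74 and 0.81 for *six3/6*. With a library left out, *six3/6* was between 0.87 and 3.41 and was not called. *foxQ2* was called without replicate 2 of 4 hpf (5.03, adjusted p = 0.0277 in limma) and without replicate 1 of 3 hpf (5.02, adjusted p = 0.0292), but not without the other library of either stage.

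**Figure D1:**
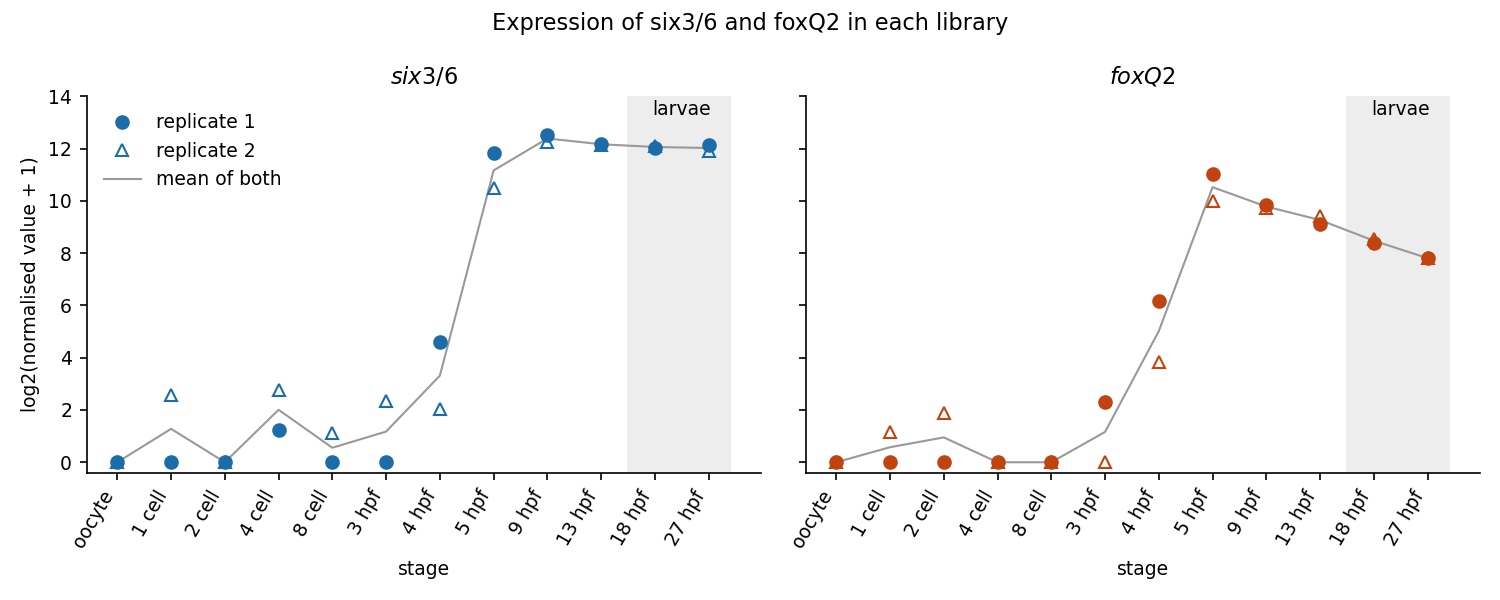
Normalised expression of *six3/6* (left) and *foxQ2* (right) as log2(value + 1) in each of 24 libraries, with stages evenly spaced on the x axis, symbols for replicates and a line through stage means. Both genes are near 0 up to 3 hpf; *six3/6* stays high from 9 hpf on, and *foxQ2* is highest at 5 hpf and lower at each later stage.

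At 5 hpf both genes were high. *six3/6* had values of 3666 and 1448 at 5 hpf, against 23.1 and 3.12 at 4 hpf. *foxQ2* had values of 2106 and 1036 at 5 hpf, against 72.0 and 13.4 at 4 hpf. For both genes the lower library of 5 hpf was far above the higher library of 4 hpf.

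*six3/6* rose by 7.85 ± 0.95 (SE) on the log2 scale, with an adjusted p in limma of 0.000434, and the rise ranked 1 among all 23934 genes tested. *foxQ2* rose by 5.51 ± 0.86, with an adjusted p of 0.00283 and rank 14. These ranks depend on the low values of 4 hpf: with a pseudocount of 0.1 they were 8 and 131, with one of 10 they were 1 and 10, and with a library left out they lay between 1 and 4 for *six3/6* and between 6 and 108 for *foxQ2*. Of all genes tested, 1.19% were called higher and 0.0794% lower at 5 hpf against 4 hpf, and the median change of all genes was 0.01. The *six3/6* rise was between 6.58 and 9.13 when any of the 4 libraries was left out and was called each time. The *foxQ2* call was lost without replicate 1 of 5 hpf (5.00, adjusted p = 0.0789) and without replicate 2 of 4 hpf (4.34, adjusted p = 0.0673). With only the 4 libraries of these stages in the limma fit, 0 of 23934 genes were called (1937 had an unadjusted p under 0.05), so that fit could keep no call; the changes of both genes were the same in it.

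The pattern of both genes is rare in the table. Stage means under 5 at every stage up to 3 hpf and of at least 500 at 5 hpf were found in 17 of 23934 genes, or 0.071%, and both genes were among the 17. These limits were set after the values had been seen, so this is a description without a test.

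After 5 hpf the courses of the 2 genes separated. *six3/6* had values of 5977 and 4846 in the gastrula (9 hpf) and of 4681 and 4547 at 13 hpf. In larvae it had 4149 and 4439 at 18 hpf, then 4478 and 3896 at 27 hpf. The stage means of *six3/6* (± SD, n = 2 each) were, for 5, 9, 13, 18 and 27 hpf in this order, 2557 ± 1568, 5411 ± 800, 4614 ± 94.9, 4294 ± 206 and 4187 ± 412. The highest mean was thus in the gastrula, as in 14.7% of all genes tested, and the mature larva still held 77.4% of it. Ordered by level, the stages ran 9, 13, 18, 27, 5 and 4 hpf, and among the stages from 5 hpf on the only neighbours in this order whose libraries overlapped were 18 and 27 hpf. All libraries from 9 hpf on were above both libraries of 5 hpf. The share of all genes with such an order was not counted. The place of 5 hpf in this order depends on the deposited scaling. Scaling by trimmed means (TMM) divides by 0.920 and 0.892 at 5 hpf and by 1.32 and 1.31 at 27 hpf. Under it, replicate 1 of 5 hpf lies above the libraries of 13, 18 and 27 hpf.

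The *six3/6* level at 9 hpf was 1.22 ± 0.95 (SE) above that at 5 hpf on the log2 scale, with an adjusted p of 0.377 in limma and a 95% interval of -0.80 to 3.25. In this comparison 18% of all genes were called higher and 11.5% lower, and the median of all genes was 0.40. The change rested on the 5 hpf libraries, being 1.89 without replicate 1 and 0.55 without replicate 2 of that stage. The spread between replicates of *six3/6* was much larger early than late, with a pooled SD of log2(value + 1) of 1.26 up to 4 hpf, 0.95 in the blastula and 0.13 from 9 to 27 hpf. In a limma fit of the 10 libraries from 5 hpf on, an alternative chosen after these spreads had been seen, the rise at 9 hpf was called (adjusted p = 0.0255), as were the rises of 22% of all genes.

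The later steps of *six3/6* were small. The log2 change was -0.22 at 13 hpf against 9 hpf, -0.10 at 18 hpf against 13 hpf and -0.04 at 27 hpf against 18 hpf, each with an SE of 0.95 and adjusted p-values in limma of 0.985, 0.999 and 1. The interval of the last change was -2.06 to 1.99, so this fit does not bound it closely. In the fit of the 10 libraries from 5 hpf on, the SE of each of these steps was 0.36. The adjusted p-values in limma were then 0.840, 0.946 and 0.982. Across the whole span, *six3/6* was 0.86 higher at 27 hpf than at 5 hpf (interval -1.17 to 2.88, adjusted p = 0.486 in limma), with a median of all genes of 0.53. It was 1.53 without replicate 1 and 0.19 without replicate 2 of 5 hpf. It also depended on the scaling of the libraries and was 0.32 when the libraries were scaled by trimmed means (TMM), under which the median of all genes was 0.00.

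*foxQ2*, in contrast, was highest at 5 hpf, as were 5.07% of all genes tested. It had values of 916 and 849 in the gastrula (9 hpf) and of 561 and 679 at 13 hpf. In larvae it had 337 and 377 at 18 hpf, then 223 and 224 at 27 hpf. The stage means of *foxQ2* (± SD, n = 2 each) were, for 5, 9, 13, 18 and 27 hpf in this order, 1571 ± 756, 883 ± 47.6, 620 ± 84.0, 357 ± 28.3 and 224 ± 0.229. At each step both libraries of the later stage were below both libraries of the earlier one, a pattern that 485 genes (2.03%) showed; the stage means alone were lower at each step in 2136 genes (8.92%). The mature larva held 14.2% of the highest mean. In the order of its levels, 5, 9, 13, 18, 27 and 4 hpf, no neighbours overlapped.

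*foxQ2* fell by 2.72 ± 0.86 (SE) on the log2 scale at 27 hpf against 5 hpf, with a 95% interval of -4.55 to -0.89 and an adjusted p of 0.0148 in limma. In this comparison 19.2% of all genes were called lower and 31.8% higher, and the fall ranked 1236 from the largest of 23934. The call was lost without replicate 1 of 5 hpf (-2.21, adjusted p = 0.112), without replicate 1 of 27 hpf (-2.72, adjusted p = 0.0592) and without replicate 2 of 27 hpf (-2.72, adjusted p = 0.0591); leaving out a library of 27 hpf did not move the change itself. In the fit of the 10 libraries from 5 hpf on the adjusted p was 9.52e-05 and 19.7% of all genes were called lower. With TMM scaling the change was -3.25 (adjusted p = 0.00599 in limma).

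No single step of this fall was called. The log2 change of *foxQ2* was -0.74 at 9 hpf against 5 hpf, -0.51 at 13 hpf against 9 hpf, -0.79 at 18 hpf against 13 hpf and -0.67 at 27 hpf against 18 hpf, each with an SE of 0.86, and adjusted p-values in limma of 0.575, 0.917, 0.851 and 0.888. Without replicate 1 of 5 hpf the change at 9 hpf was -0.23, and without replicate 2 it was -1.25. The pooled SD of *foxQ2* was 1.06 up to 4 hpf, 0.72 in the blastula and 0.12 from 9 hpf on, and the SE of the fit holds all of these. At 9 hpf against 5 hpf 18% of all genes were called higher and 11.5% lower. Fewer were called at the later steps. The shares were 4.19% higher and 2.13% lower at 13 hpf, and 1.56% higher and 1.08% lower at 18 hpf. At 27 hpf against 18 hpf they were 1.88% higher and 1.83% lower. With the 10 libraries from 5 hpf on, the adjusted p-values of the steps of *foxQ2* in limma were 0.124, 0.489, 0.285 and 0.383. In that fit 11.1%, 1.58%, 0.677% and 1.2% of all genes were called lower at these steps. The shares called higher were 22%, 6.42%, 1.93% and 1.59%. Among the 17 genes with the sharp onset, the stage means of 6 were lower at every step after 5 hpf, and *foxQ2* was the 1 of these whose libraries never overlapped between successive stages.

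**Figure D2:**
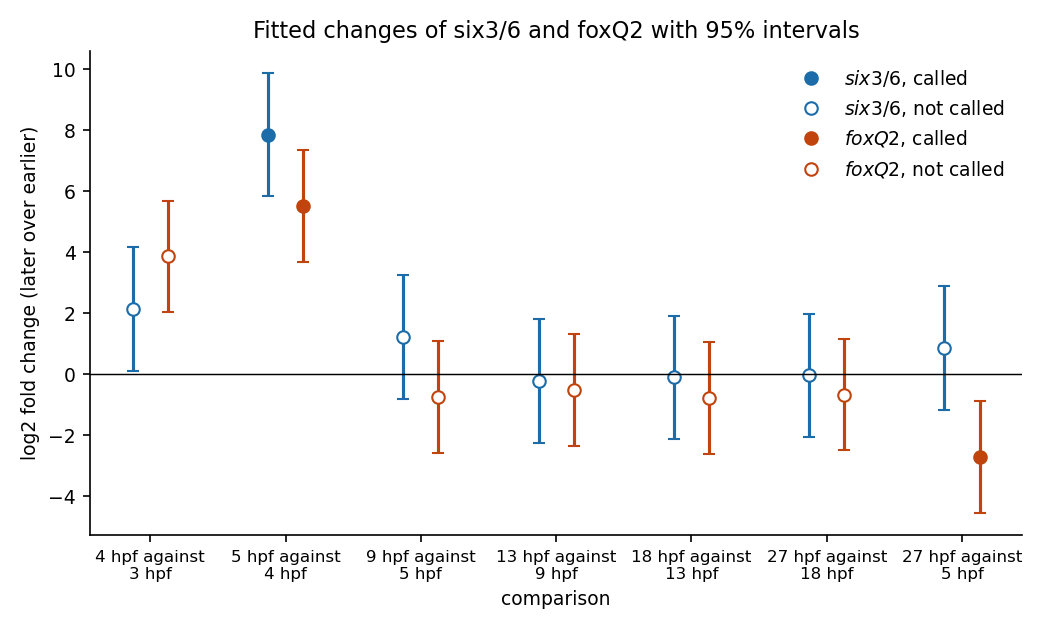
Fitted log2 fold change (later over earlier stage) of *six3/6* and *foxQ2* in 7 comparisons, with 95% intervals of the limma fit; filled points were called at an adjusted p under 0.05. Both genes are called higher at 5 hpf against 4 hpf and *foxQ2* is called lower at 27 hpf against 5 hpf, and the intervals of the steps between 5 and 27 hpf include 0.

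Because both values come from the same library, the ratio of *six3/6* to *foxQ2* is free of library scaling. Its size depends on transcript lengths, which were not used here, and only its change over time can be read. In the libraries of 4 hpf the ratio was 0.320 and 0.233, and in those of 5 hpf it was 1.74 and 1.40. It was 6.52 and 5.71 in gastrulae and 8.35 and 6.69 at 13 hpf, and in larvae 12.3 and 11.8 at 18 hpf, then 20.0 and 17.4 at 27 hpf. At each step both libraries of the later stage were above both of the earlier one. The step at 9 hpf joined a higher *six3/6* level to a lower *foxQ2* level, and at the later steps both stage means were lower than before, that of *foxQ2* by the larger share.

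The log2 ratio averaged 3.90 ± 0.37 (SD, n = 4) in the larvae of 18 and 27 hpf and 2.05 ± 1.11 (SD, n = 6) in the embryos of 5, 9 and 13 hpf. The difference was 1.85, and the libraries of the larvae, from 3.56 to 4.32, were all above those of the embryos, from 0.48 to 3.06 (exact permutation test, two-sided p = 0.00952, the smallest these groups allow). Since no successive stages overlapped, any division of these stages in time gives complete separation, and the test adds nothing to the values above. Successive stages are also not replicates of 1 condition. Without the 5 hpf libraries the difference was 1.15 (exact permutation p = 0.0286). With replicate 2 libraries alone it was 1.92 and with replicate 1 libraries alone 1.78, where the exact permutation p of 0.2 is the smallest possible.

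**Figure D3:**
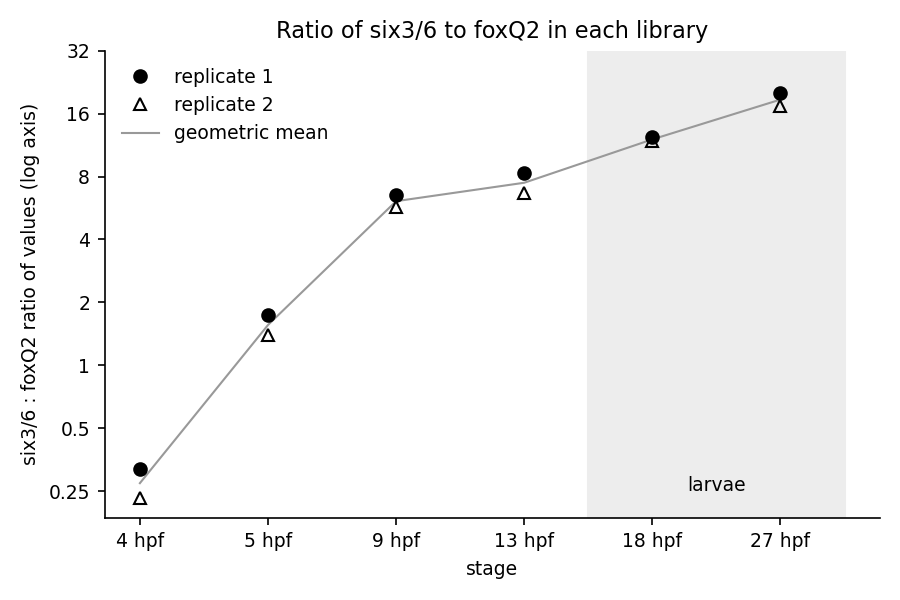
Ratio of the *six3/6* value to the *foxQ2* value in each library from 4 to 27 hpf, on a log axis with stages evenly spaced, and a line through the geometric mean of both replicates. The ratio is 20.0 and 17.4 at 27 hpf, against 0.320 and 0.233 at 4 hpf, and no 2 successive stages overlap.

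At the onset the 2 replicates differed in the same direction for both genes. Replicate 1 was above replicate 2 by 2.55 for *six3/6* and 2.34 for *foxQ2* on the log2(value + 1) scale at 4 hpf, and by 1.34 and 1.02 at 5 hpf. Over all genes the median difference was 0.00 at both stages, and 3.36% of genes at 4 hpf and 12.0% at 5 hpf were shifted further towards replicate 1 than *six3/6*. For *foxQ2* these shares were 3.80% and 16.6%. From 9 hpf on the 2 replicates differed by at most 0.30 for *six3/6* and 0.28 for *foxQ2*.

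The study places 4 further candidates in apical or anterior tissue: *noggin* and *BAMBI*, which modulate BMP signalling, the neural factor *POU4*, and *gsc*, a homeobox gene of the oral ectoderm. Its supplement gives the dorsal ectoderm as the site of *BAMBI* in the blastula, so these genes do not share 1 domain. At 5 hpf against 4 hpf only *POU4* of these 4 was called, beside 1.19% of all genes called higher and 0.0794% lower. The median log2 change of the 4 was 0.86, beside 0.01 for all genes. The values of *POU4* were 693 and 470 at 5 hpf, against 15.4 and 16.5 at 4 hpf, a change of 5.08 (adjusted p = 0.000482 in limma). *POU4* was thus at 54.5% of its highest stage mean at 5 hpf and *six3/6* at 47.3%, while *noggin*, *BAMBI* and *gsc* were at 0.8%, 7.7% and 1.8%. Unlike *six3/6* and *foxQ2* in the same fit, *POU4* was also called higher at 4 hpf against 3 hpf (3.46, adjusted p = 0.0132 in limma). At that step 0.606% of all genes were called higher.

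At 9 hpf against 5 hpf these last 3 genes were called higher (log2 changes of 5.90, 3.80 and 5.66), with a median of 4.73 for the 4. *six3/6* and *foxQ2* had changes of 1.22 and -0.74 at that step and were not called. Of the candidates from other domains, none of 9 posterior, 6 mesodermal and 1 hindgut gene was called by limma at 5 hpf against 4 hpf (2, 1 and 0 at an unadjusted p under 0.05), and 6, 5 and 1 of them were called higher at 9 hpf against 5 hpf, beside 1.19% and 18% of all genes at these steps. The 2 posterior genes with an unadjusted p under 0.05 at 5 hpf were *notch-like* and *fer3*. *notch-like* had values of 521 and 349 at 5 hpf, against 21.9 and 10.3 at 4 hpf. Its change of 4.73 ± 1.28 (SE, adjusted p = 0.103 in limma) stands beside 5.08 ± 0.63 for *POU4*. *fer3* rose by 2.91 ± 1.01 (adjusted p = 0.287 in limma). The posterior gene *delta*, a Notch ligand, was called a step earlier, at 4 hpf against 3 hpf (2.24, adjusted p = 0.000146 in limma), and was at 57.9% of its highest stage mean at 5 hpf. The medians at 9 hpf were 3.38, 6.16 and 4.61, beside 0.40 for all genes. The study chose these candidates for their response to inhibitors, and the lists were not tested as sets.

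**Figure D4:**
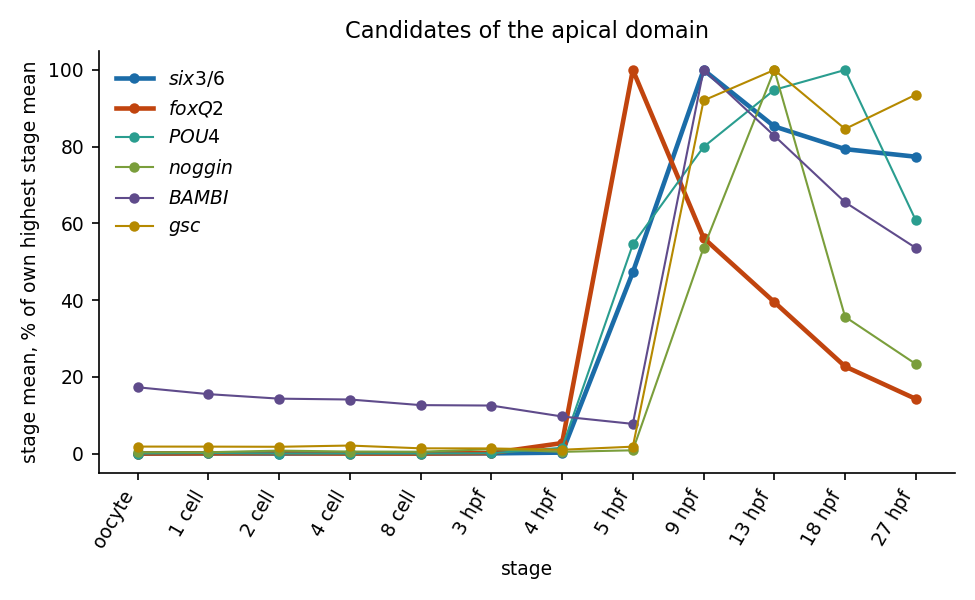
Stage means of the 6 candidates that the study places in apical or anterior domains, as a percentage of the highest stage mean of each gene, with stages evenly spaced. *foxQ2* reaches its highest mean at 5 hpf and is at 14.2% of it at 27 hpf; *six3/6* and *POU4* are at 47.3% and 54.5% at 5 hpf, and *noggin*, *BAMBI* and *gsc* are below 10% there.

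Further genes were named by their best SwissProt hit in a table from the study's supplementary data on differential expression under its inhibitors. The table used lists only 847 genes, beside 26966 in the time course, and gives a hit for 580. Most genes are thus unnamed here, and relatives outside that table were not looked for. A pair of the genes named have relatives that mark the anterior end in other animals. OFUSG18814, with FEZF2 of mouse, a zinc finger factor of the forebrain, as its best SwissProt hit, had values of 2341 and 2293 at 9 hpf, against 18.8 and 9.66 at 5 hpf. Its log2 change was 7.32 (adjusted p = 2.08e-06 in limma). OFUSG08328, whose best hit is SFRP5 of mouse, a secreted Wnt antagonist, had stage means of 445 in the oocyte and 685 at 4 hpf. Unlike the members, it was thus present from the oocyte on. OFUSG08328 was called higher at 9 hpf against 5 hpf by 1.90 (adjusted p = 0.0257 in limma). Neither was called at 5 hpf against 4 hpf, with unadjusted p-values in limma of 0.898 and 0.497, whereas *six3/6* and *foxQ2* both were. Of all genes tested, 1.19% were called higher at that step.

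That table pairs 7 genes other than *foxQ2* with a forkhead protein. None was called by limma at 5 hpf against 4 hpf, where 1.19% of all genes were called higher and 0.0794% lower. With shares this small, 7 genes are too few for the lack of a call to set *foxQ2* apart. Of the 7, 2 had an unadjusted p under 0.05 in limma. At 27 hpf against 5 hpf, 3 of the 7 were called higher and 3 lower, with a median log2 change of -2.28, beside 31.8% higher, 19.2% lower and a median of 0.53 for all genes. OFUSG09642, with FOXB1 of frog as its best hit, also had its highest stage mean at 5 hpf. It was at 2.2 at 27 hpf, against 16700 at 5 hpf (log2 change -12.40, adjusted p = 5.70e-09 in limma). Its rise was called a step before that of *foxQ2*, at 4 hpf against 3 hpf (4.40, adjusted p = 0.0145 in limma). The stage means there were 7620 and 447, and 0.606% of all genes were called higher. OFUSG03084 (best hit FOXL1 of mouse) was highest at 4 hpf. The 1 other gene of the sine oculis family in it, OFUSG21596 (best hit SIX4 of human), was highest at 18 hpf, with a stage mean of 964, and was at 14.7 at 5 hpf.

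OFUSG09683 followed *foxQ2* library by library. Both have FOXJ3 of human as their best hit and carry consecutive identifiers. OFUSG09683 had values of 41.1 and 10.4 at 4 hpf, and of 1110 and 545 at 5 hpf. Later it had 426 and 409 in gastrulae (9 hpf), 293 and 381 in embryos of 13 hpf, 199 and 256 in larvae of 18 hpf, and 158 and 160 in larvae of 27 hpf. In 12 libraries from 4 hpf on, the value of *foxQ2* was 1.29 to 2.15 times that of OFUSG09683 (median 1.76), including the libraries of 5 hpf, where the 2 replicates of *foxQ2* were far apart but the ratio was 1.9 in both.

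Up to 3 hpf the 2 genes differed, since OFUSG09683 reached 28.0 in replicate 1 of 3 hpf and 21.0 in replicate 1 of the 2-cell stage. Its change at 5 hpf against 4 hpf was 5.15 ± 1.61 (SE) and was not called (adjusted p = 0.194 in limma). Whether the 2 genes adjoin or share reads was not tested, as no sequence or coordinates were used here, and the division of reads between them is uncertain. The library-by-library comparison was made after the values had been seen.

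**Figure D5:**
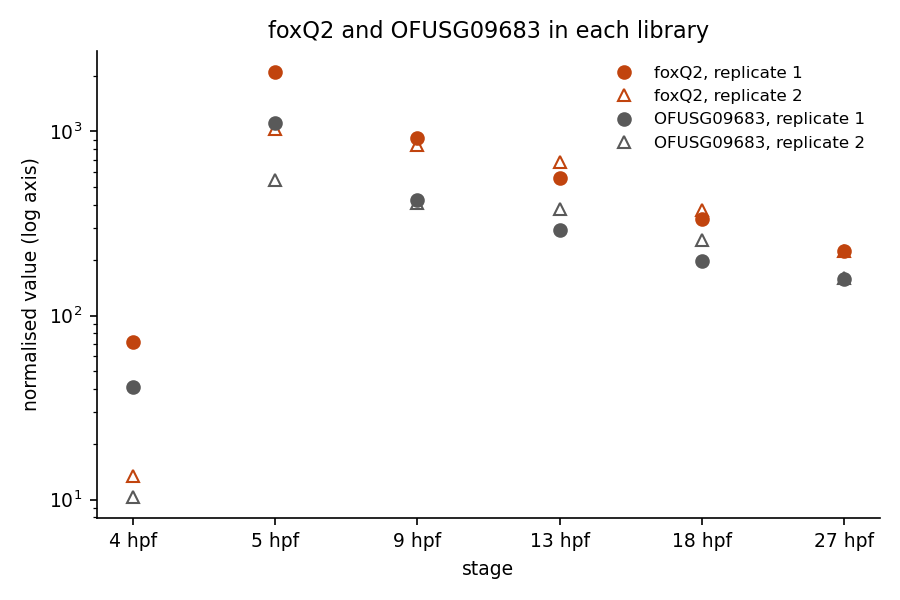
Normalised values of *foxQ2* and OFUSG09683 in each library from 4 to 27 hpf on a log axis, with stages evenly spaced and symbols for replicates. The 2 genes move together, with *foxQ2* at 1.29 to 2.15 times the value of OFUSG09683 in each library; the values carry no unit of length.

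Likeness was measured by the Pearson correlation of the 12 stage means of log2(value + 1), across stages that share libraries and an onset, and is given without a test. The 5 genes most like *six3/6* were OFUSG17028 (r = 0.993), OFUSG12225 (r = 0.992), *POU4* (r = 0.991), OFUSG00587 (r = 0.990) and OFUSG17230 (r = 0.990). OFUSG12225 has a zebrafish protein of the Nkx2.2 family as its best hit, and its values were 6354 and 6933 at 9 hpf, against 2047 and 610 at 5 hpf. Like *six3/6*, it was higher in replicate 1 at 5 hpf. OFUSG25600, with LHX3 of frog as its best hit, was the next with a named relative (r = 0.982).

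The 5 genes most like *foxQ2* were OFUSG00634 (r = 0.995), OFUSG14841 (r = 0.989), OFUSG23256 (r = 0.988), OFUSG22644 (r = 0.988) and OFUSG17029 (r = 0.987), none with a hit in that table. The nearest with a hit were OFUSG17424 (MRC1 of human, r = 0.978), OFUSG18367 (the protease rhomboid of *Drosophila*, r = 0.977) and *POU4* (r = 0.976). *six3/6* and *foxQ2* correlated with each other at r = 0.957. By this measure 236 genes were closer to *six3/6* than *foxQ2* was, and 113 were closer to *foxQ2* than *six3/6* was. An r of at least 0.95 was reached by 344 genes with *six3/6* and by 160 with *foxQ2*.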

How the data were processed

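Values are normalised expression (unit: signal), 1 per transcript and library, as deposited by the authors, whose processing notes name kallisto 0.46.2 and DESeq2 1.30.1. These are not whole counts, so a count test set out for that case was not run. The columns named for 16 and 32 cells were taken as 3 and 4 hpf; 3 columns that match no sample were not used, nor were the ATAC-seq peaks of 2 replicates at 5 hpf. The 31903 transcripts were summed to 26966 genes, and 23934 genes reached 10 or more in 2 or more libraries and were tested.

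All 24 libraries entered 1 fit of log2(value + 1) with limma 3.58.1 (R 4.3.3), letting the variance follow the mean, with no term but stage; genes with a Benjamini-Hochberg adjusted p under 0.05 were called. Fits that leave out libraries kept the same genes. The value of 1 read was estimated from low values, which fell within 0.1 of whole reads for 67.4% to 100% of them, depending on the library. The ratio was tested by exact permutation (scipy 1.17.1; Python 3.11.15, pandas 2.3.3). The scripts were tested on simulated data.

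The members, lists and tests were chosen with earlier results of these data known. Genes named are the members, the study's candidates, and the forkhead, sine oculis, FEZF2 and SFRP5 genes by best SwissProt hit. A hit is given for 580 of the 847 genes in the table used. For each member the 5 genes of most similar course and the 3 most similar with a hit are also named. Alternatives were other scalings, filters and pseudocounts, no trend, transcripts, fewer libraries and the replicate number as a block.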

Additional observations from a re-analysis of the deposited data

How the results depend on the processing

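Of the alternatives, TMM scaling, upper-quartile scaling, no filter and transcripts in place of genes left all 14 changes on their side of the threshold in limma. *foxQ2* at 4 hpf against 3 hpf (3.86) was called with a filter of 50 (adjusted p = 0.0464), without the trend (0.0437), with the replicate block (3.86, 0.0406) and with the replicate block by period (3.86, 0.0233), and was 2.69 to 5.03 with a library left out. The replicate block changed no other call (4 of 14 called with it, 3 without). Replicate differences correlated above 0.1 in 57 of 66 stage pairs (0.0392 to 0.692), and in all 28 pairs up to 5 hpf (0.409 to 0.692). Between stages from 9 hpf on the correlations were 0.259 to 0.471. Every pair below 0.1 set a stage up to 3 hpf against 18 or 27 hpf. The limit was thus not passed in every pair and the labels name no shared batch, so the fit without a block was kept. A shared source of same-numbered libraries, up to 5 hpf or from 9 hpf on, was not tested. At 5 hpf against 4 hpf, *six3/6* (7.85, adjusted p = 0.38) and *foxQ2* (5.51, 0.415) were not called with only 4 libraries, a fit that called 0 of 23934 genes, and *foxQ2* was not called with a pseudocount of 0.1 (5.56, 0.19); *foxQ2* was 4.34 to 6.68 with a library left out. *six3/6* at 9 hpf against 5 hpf was called with a pseudocount of 10 (1.22, 0.0493) and with the 10 libraries from 5 hpf on (1.22, 0.0255). *six3/6* at 27 hpf against 18 hpf was -0.14 to 0.06 with a library left out and turned positive without replicate 2 of 27 hpf (0.061) or of 18 hpf (0.01). *foxQ2* at 27 hpf against 5 hpf was not called with a pseudocount of 0.1 (-2.72, 0.205) and was -3.23 to -2.21 with a library left out. The log2 ratio difference was 1.78 to 1.92 with a replicate number left out. Leaving out libraries or stages lowers the number of samples; the cause of the other changes was not tested. The few reads up to 4 hpf limit every fold against those stages.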
